A study of Arabidopsis thaliana with 88 samples.

Results

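The genes described here lie in a stretch of mitochondrial DNA that sits beside the centromere of chromosome 2 in the reference genome of Arabidopsis thaliana. They are the protein-coding rows of the Araport11 annotation on chromosome 2 whose gene bodies start in a fixed window around this insertion, which gave 91 of the 26928 protein-coding rows. Their gene bodies run from base 3240494 to base 3503476 of the TAIR10 build, counted from 1, and are 42 to 5799 bp long with a median of 883 bp. Of the 91 genes, 51 lie on the plus strand and 12 overlap another gene of the set, so that some values rest on the same cytosines. All 91 were found in RefSeq as protein-coding, but only AT2G07681, named ABCI4 (ATP-binding cassette I4), has a symbol of its own. The other genes are therefore given by locus tag and could not be ordered by function, and nothing in the tables themselves marks a row as mitochondrial in origin.

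Plant nuclear genomes take up pieces of organelle DNA, and the insertion on chromosome 2 holds a copy of much of the mitochondrial genome. Nuclear DNA near plant centromeres usually carries methylated cytosines, which are told apart by the bases that follow as CG, CHG or CHH sites (H stands for A, C or T). CG methylation is copied after replication by the methyltransferase MET1, CHG methylation is kept up mainly by CMT3 and CHH methylation by DRM2 and CMT2. Leaf cells also carry mitochondrial DNA outside the nucleus in many copies, and in organelle DNA these marks are generally scarce. A short read from the organelle and one from the nuclear copy can have the same sequence.

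The study sequenced bisulfite-treated DNA of untreated mature leaves from 32 natural accessions, which are inbred lines from wild populations. Accession 6909, which is Col-0, the line behind the reference genome, is compared here with the 31 others (1254, 1741, 4807, 5210, 5486, 5772, 5779, 5784, 5856, 6021, 6024, 6069, 6076, 6184, 6189, 6220, 6244, 6911, 6966, 8244, 8366, 9057, 9412, 9470, 9512, 9518, 9588, 9845, 9888, 9905 and 10012). Each library came from pooled leaves of a few plants on soil under long days, and the replicate number of a library is its round of sowing and growth. There were 88 libraries, 4 of them from 6909 and 84 from the others. In all, 3 accessions had 1 library, 13 had 2, 5 had 3 and 11 had 4. Which of the other accessions carry the insertion is not given in the sources used here.

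Values are methylation levels of a gene body or of a promoter window of 400 bp centred on the gene's start, given here as percentages. The deposited tables hold no read counts, so depth is unknown and no counting error can be given. A region whose CHH fraction equalled 1 was taken to hold no data. It made up 46.0% of the gene-body CHH values of these genes, and 99.4% of those values were also 1 in CG and CHG. The tables hold no rows of the mitochondrial or plastid chromosome, so organelle reads cannot be told apart from reads of the nuclear copy.

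The insertion genes had data in more regions in 6909 than in any other accession's libraries. In the 6909 libraries 58 to 61 of the 91 gene bodies had data, against a median of 49 and a range of 42 to 53 in the 84 libraries of the other accessions, so the groups did not overlap. Promoter windows had data in 36 to 46 genes in 6909 libraries and in 21 to 34 genes in the others. The share of gene bodies without data was 34.6% in 6909 and 46.5% ± 1.80 in the others (SD over 31 accessions). For the 29 protein-coding neighbours within 270000 bp on either side of the window it was 3.45% in 6909 and 14.4% ± 5 in the others, and for the 26837 protein-coding genes elsewhere it was 0.694% in 6909 and 2.21% ± 0.186 in the others. For the 3885 transposable element genes outside the window it was 2.46% in 6909 and 20.2% ± 1.67 in the others. The gap between 6909 and the others was thus also present outside the insertion, and it was wider in transposable element genes. Each of these sets lacked data in a smaller share of genes than the insertion did.

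**Figure D1:**
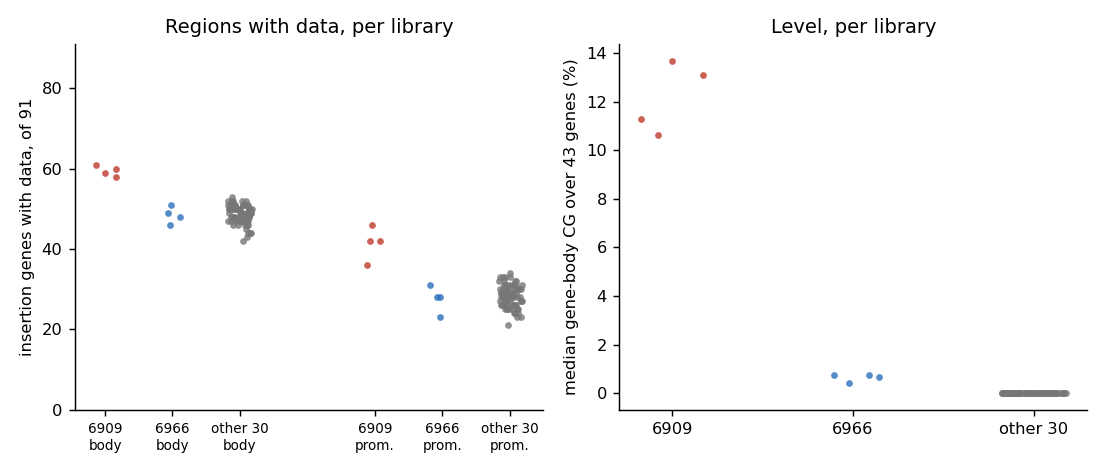
Left, number of insertion genes with data in each library, for gene bodies and promoter windows; right, median gene-body CG level in percent over the 43 genes with a value in at least 80% of libraries. Each dot is a library, with 4 for 6909, 4 for 6966 and 80 for the 30 other accessions; the 6909 libraries are the highest in every column set, and the medians of the 80 libraries are all 0.

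By how widely they were covered, the 91 genes fell into 4 sets. Gene bodies of 44 genes had data in at least 80% of libraries, and these 44 had data in all 31 other accessions. A further 11 had data in at least 2 of the 4 libraries of 6909 but in fewer than 20% of the other libraries, at most 8 of 84. No data were present in any library for 15 genes, among them AT2G07671, AT2G07675, AT2G07627, AT2G07708 and AT2G07741. The remaining 21 had data in 0 to 4 libraries of 6909 and in 0 to 65 of the others. The set with data mainly in 6909 made up 12.1% of insertion genes, against 3.45% of neighbours, 0.257% of protein-coding genes elsewhere and 3.24% of transposable element (TE) genes outside the window.

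In the 11 genes with data mainly in 6909, methylation in 6909 was high. Their CG levels in 6909 ranged from 50% to 100% with a median of 87.5%, and 8 of the 11 were at 70% or more. AT2G07777 (bases 3249396 to 3251545) had CG levels of 100%, 86.7%, 78.6% and 88.5% in growth rounds 1 to 4 of 6909, and had data in 1 other library, where CG was 0. AT2G07768 (3273584 to 3274154) had CG levels of 94.4%, 90%, 78.6% and 100% in 6909, and 0 in each of the 5 other libraries with data. AT2G07749 (3247003 to 3249357) had CG levels of 57.1%, 94.1%, 71.4% and 100% in 6909 and 0 in the 6 other libraries with data. AT2G07672 had the highest CG level of any gene with data in more than 1 library of 6909, 100% in each of its 3 libraries. CHG in the 11 genes had a median of 28.7% in 6909, from 18.8% to 57.8%, and CHH a median of 2.94%, from 0 to 9.91%. TE genes outside the window with data mainly in 6909 had a median of 85.4% CG, 33.3% CHG and 6.77% CHH in 6909. No difference between the sets was tested.

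Promoter windows behaved alike in 15 genes, whose windows had data in at least 2 libraries of 6909 and in fewer than 20% of the others. They made up 16.5% of insertion windows, against 6.90% for neighbours, 0.455% for protein-coding genes elsewhere and 7.90% for TE genes outside the window. CG had a value in 13 of the 15 windows and averaged 42.9% to 91.7% in 6909, with a median of 81.1%. Windows picked by the same rule had a median CG in 6909 of 86.0% for TE genes and 2.17% for protein-coding genes elsewhere. Of the 15 windows, 5 belonged to genes whose own gene bodies were covered in all accessions. For those 5 the median CG level in 6909 was 81.0% in the window and 11.1% in the gene body. AT2G07775 had window CG levels of 93.8%, 75%, 78.3% and 76.9% in rounds 1 to 4 of 6909, while its gene body averaged 11.1%. AT2G07787 had 66.7%, 60%, 100% and 50% in its window, while its gene body averaged 5.40%. AT2G07727 had 75%, 75%, 100% and 100% in its window, against 38.1% in its gene body. None of these 3 windows had data in a library of another accession.

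In the widely covered genes, by contrast, CG levels in 6909 were intermediate and those in the other accessions were close to 0. Enough values for CG were present in 43 genes, whose median level was 12.7% in 6909 and 0.564% in the others. The library medians were 11.3%, 13.7%, 13.1% and 10.6% in rounds 1 to 4 of 6909, while those of the 84 other libraries ran from 0 to 0.735% with a median of 0. No library of another accession reached the lowest of the 4. In CHG the median over 43 genes was 4.48% in 6909 and 0.465% in the others, and in CHH over 44 genes it was 1.13% in 6909 and 0.414% in the others. The gene-level mean was higher in 6909 than in the others in 42 of 43 genes in CG, 40 of 43 in CHG and 39 of 44 in CHH. Over all protein-coding genes elsewhere the same median was 4.66% in 6909 and 6.05% in the others in CG, and it was higher in 6909 in 10772 of 25999.

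Each gene was tested with limma, with 6909 set against the mean of the other accessions and p-values adjusted over all loci of a table. The error was the spread between libraries of an accession, pooled over all accessions. It does not hold the spread among accessions. Most other accessions sat near 0 in these genes, so the SE can understate the noise of 6909 itself. In gene-body CG 22 of 43 insertion genes were higher in 6909 by at least 10 percentage points at an adjusted p under 0.05, where 4.35% of all 44406 loci were. Without the minimum difference 38 of 43 rose in CG, 31 of 43 in CHG and 18 of 44 in CHH, against 7.6%, 1.86% and 0.996% of all loci. None of the 43 was lower in CG, where 5.95% of all loci were, and limma gave no unadjusted p under 0.05 for a lower level either. With no value treated as missing, all 91 genes enter the test. Then 4 genes had CG lower by at least 10 points, 13 had CHG and 14 had CHH lower by as much. Of all 62018 loci 3920, 5053 and 6583 were, in the same order. The share in the insertion was thus smaller in CG and larger in CHG and CHH. Regions taken to hold no data enter this setting as fully methylated in CHH, and nearly always in CG and CHG. These counts therefore cannot tell a lower level in 6909 from missing data in other accessions. In CHG 5 of 43 were higher by at least 10 points, where 1.01% of all loci were; this count was 8 without the libraries of growth round 4 and 2 with no value treated as missing. In CHH none of the 44 reached 10 points, where 0.155% of all loci did. At an unadjusted p under 0.05 in limma 30 of the 44 were higher. The share of all loci at that unadjusted threshold was not worked out. In 16 genes the rise was called in all 3 contexts, without a minimum difference. The share of all loci called in all 3 was not worked out.

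The largest differences were in 5 genes. Over the libraries of 6909 alone, the SD ran from 4.66 points in AT2G07774 to 17.7 points in AT2G07727, while the SEs below pool all accessions. AT2G07728 (bases 3453686 to 3456127) had CG levels of 51.4%, 41.7%, 50% and 42.1% in rounds 1 to 4 of 6909, against 0 to 11.1% with a median of 0 in the other libraries. All 6909 libraries lay above all others, and the difference was 45.6 points (SE 1.12, adjusted p = 2.76e-40 with limma). AT2G07779 (3254364 to 3255815) had 23.8%, 50.5%, 59.2% and 44.4% in 6909, and 0 to 40% with a median of 0 in the others. Here the groups overlapped through 1 library of accession 6966, and the difference was 44.0 points (SE 2.90, adjusted p = 1.68e-18 with limma). AT2G07727 (3449534 to 3452776) had 14.3%, 56.2%, 44.4% and 37.5% in 6909, and 0 to 100% with a median of 0 in the others, where a library of 1741 was the highest, a difference of 36.1 points (SE 5.57, adjusted p = 1.26e-06 with limma). AT2G07695 (3345929 to 3347826) had 27.3%, 41.1%, 29.5% and 31.8% in 6909, above the 0 to 25.2% of the others. Its difference was 31.7 points (SE 1.41, adjusted p = 4.03e-27 with limma). AT2G07774 (3303766 to 3304650) had 30.2%, 25%, 26.2% and 35.3% in 6909, and 0 to 26.9% in the others, so the groups overlapped, with a difference of 27.9 points (SE 1.46, adjusted p = 8.60e-24 with limma).

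The smallest differences were in 5 genes, of which AT2G07725 alone passed the test. It had CG levels of 10%, 11.1%, 0 and 0 in rounds 1 to 4 of 6909 and 0 to 14.3% in the others, a difference of 4.54 points (SE 1.30, adjusted p = 0.0103 with limma). AT2G07652 had 7.14% in round 3 of 6909 and 0 in its other 3 libraries, a difference of 1.33 points (SE 0.610, adjusted p = 0.164 with limma). AT2G07830, a gene body of 123 bp and the tested gene with the lowest CG in 6909, was at 0 in all 4 libraries of 6909 and averaged 0.0597% in the others. AT2G07626 was at 100% in round 2 of 6909 and at 0 in the other 3 rounds, and among the other accessions single libraries also reached 100%. AT2G07722 averaged 9.52% ± 16.5 in 6909 (SD, n = 3) and 8.87% ± 16.1 in the others (SD over 31 accessions). The difference in AT2G07626 was 4.21 points, but -1.43 with no value treated as missing and 21.4 against the median of the others. In AT2G07722 it was 0.653 points, but 18.4 with no value treated as missing and 9.52 against the median of the others.

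ABCI4 (AT2G07681, bases 3287529 to 3292366), a member of the ATP-binding cassette family by its RefSeq name, rose in all contexts. Its CG level was 21.0%, 21.0%, 26.0% and 13.4% in rounds 1 to 4 of 6909, against 0 to 4.62% with a median of 0 in the other libraries. CHG was 12.2%, 11.4%, 10.2% and 6.46% in 6909 and at most 2.78% in the others. CHH was 1.21%, 2.00%, 1.62% and 1.24% in 6909 and at most 1.01% in the others, so the groups did not overlap in any context. The differences were 19.9 points in CG (SE 0.727, adjusted p = 2.34e-31), 9.60 in CHG (SE 0.400, adjusted p = 2.33e-28) and 1.18 in CHH (SE 0.107, adjusted p = 1.41e-12), all with limma. AT2G07629 (3312873 to 3313502) was the other gene without overlap in all 3 contexts. It averaged 18.2% ± 4.74 in 6909 (SD, n = 4) and 0.410% ± 0.234 in the others in CG (SD over 31 accessions).

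Complete separation of the 6909 libraries from all others was seen in 7 of 42 insertion genes with a CG value in all 4, where 0.0869% of all loci showed it. The 7 were AT2G07655, ABCI4, AT2G07629, AT2G07695, AT2G07698, AT2G07715 and AT2G07728. In CHG there were 6 of 42, where 0.0459% of all loci showed it, and in CHH 2 of 43, where 0.00893% did. In no insertion gene did all 6909 libraries lie below all others, in any context. Of all loci only 11 of 43712 did so in CG, 2 of 39181 in CHG and 2 of 44807 in CHH, so 0 is near the share of all loci.

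Promoter windows of the insertion genes gave the same direction with fewer genes. Enough CG values were present in 24 windows, with a median of 16.1% in 6909 and 0.447% in the others, and 14 of the 24 were higher in 6909 by at least 10 points, where 2.43% of all promoter windows were. The count was 8 when no value was treated as missing. Then 9 of 91 windows had CG lower by as much, 19 lower CHG and 22 lower CHH. Of all 62018 windows 4191 were lower by as much in CG, 7012 in CHG and 8400 in CHH. Windows taken to hold no data enter that setting with the values deposited, so the limit given for gene bodies holds here too. With a value required in every library, 7 of 13 windows were higher in CG by at least 10 points. In CHG 2 of 23 windows passed, those of AT2G07629 and AT2G07695, where 1.27% of all windows did; the count was 0 without growth round 2, 1 without round 3 and 4 without round 4. In CHH none of 24 passed, where 0.511% of all windows did. At an unadjusted p under 0.05 in limma 9 were higher, and the share of all windows at that threshold was not worked out. The window of AT2G07629 had CG levels from 17.0% to 28.3% in 6909 and at most 1.69% in the others, a difference of 23.0 points (SE 0.628, adjusted p = 1.71e-37 with limma). It was without overlap in CHG and CHH as well. Of 19 genes tested in CG in both regions, 8 were higher by at least 10 points in both. The share of all loci called in both was not worked out. Some window values moved in large steps, as in AT2G07825, whose window was at 0, 0, 100% and 100% in rounds 1 to 4 of 6909. The cause of such steps was not tested.

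Differences among all accessions were tested with a moderated F-test in limma. In gene bodies 33 of 43 insertion genes passed in CG, where 64% of all loci did, so the share in the insertion is near that of the genome. In CHG 28 of 43 passed, where 20.2% of all loci did, and in CHH 11 of 44, where 13.9% did. With 6909 left out, 18 passed in CG, where 63.2% of all loci did, 15 in CHG, where 19.5% did, and 7 in CHH, where 13.3% did. The CHG count was 18 without growth round 4, and the CHH count was 7 without round 3 and 6 without round 4. In promoter windows 15 of 24 passed in CG, 7 of 23 in CHG and 2 of 24 in CHH, against 26.2%, 14.7% and 10% of all windows. The promoter counts were lower without some rounds, at 8 in CG without round 3 or round 4, 3 and 4 in CHG without rounds 1 and 2, and 1 in CHH without round 2.

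Within each growth round the direction was the same. The median over genes of the 6909 library minus the mean of the other libraries of its round was 10.9, 11.8, 12.1 and 10 points of gene-body CG in rounds 1 to 4. The 6909 library was the higher in 36 of 43, 36 of 43, 36 of 42 and 35 of 43 genes. In CHG the medians were 3.64, 4.97, 6.13 and 3.20 points. In CHH they were 0.782, 0.598, 0.492 and 0.734 points.

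The level in 6909 differed along the insertion. Divided into 3 stretches of equal length, the first held 12 widely covered genes with a median CG of 21.1% in 6909, the second 10 with 16.3% and the last 21 with 7.34%. In each of the 4 libraries the first stretch was above the last, at 18.8%, 21.2%, 21.4% and 21.4% in the first against 8.62%, 6.19%, 8.89% and 6.15% in the last. The second stretch was at 7.70%, 17.3%, 17.7% and 19.1%, so that in round 1 it was below the last. Of the tested genes, 10 of 12 in the first stretch were higher in 6909 by at least 10 points in CG, 8 of 10 in the second and 4 of 21 in the last. CHG medians in 6909 were 10%, 4.06% and 3.46% from the first to the last stretch. Spearman's rho between the start of a gene and its mean CG level in 6909 was -0.65 over 43 genes, and -0.38, -0.49, -0.34 and -0.44 in the single libraries. It is a description across genes of one insertion, which share libraries and in part cytosines. Against gene-body length rho was 0.09.

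**Figure D2:**
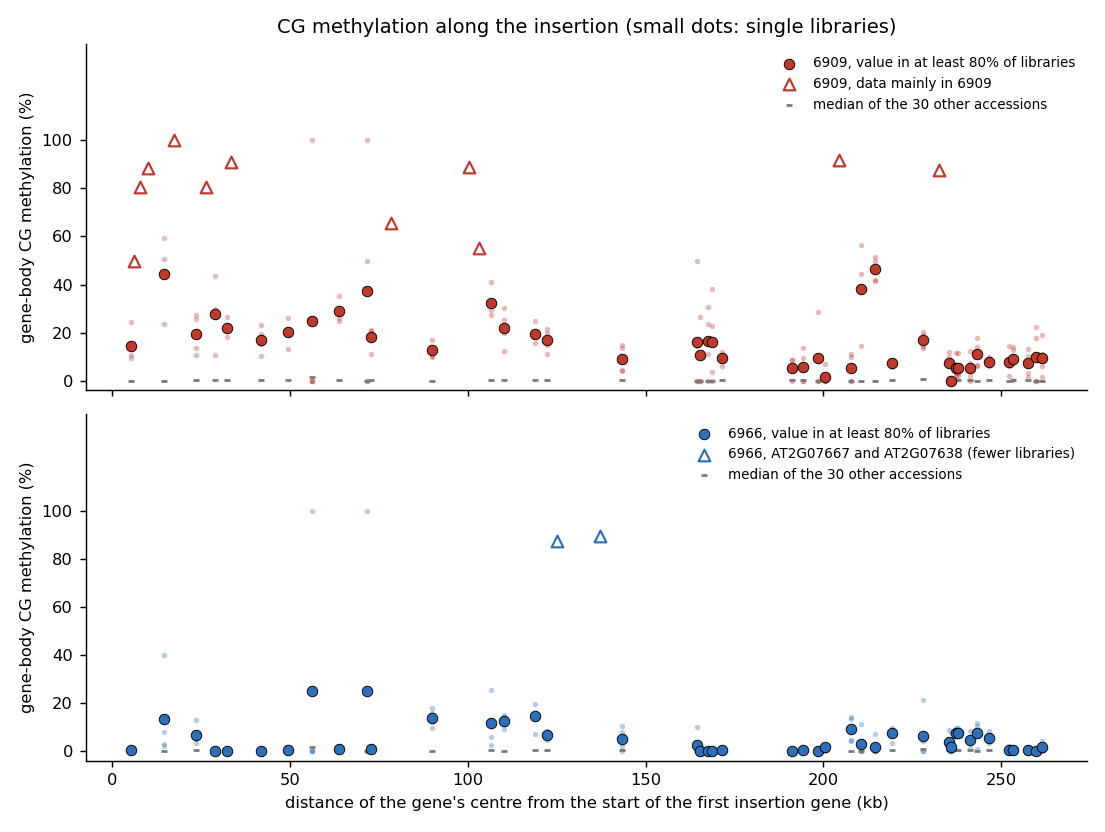
Gene-body CG level in percent against the distance of the gene's centre from the start of the first insertion gene, for 6909 (upper panel, red) and 6966 (lower panel, blue). Large circles are means and small dots single libraries for the 43 widely covered genes, triangles are the 11 genes with data mainly in 6909 (upper panel) or AT2G07667 and AT2G07638 (lower panel), and grey dashes are medians of the 30 other accessions. Circles of 6909 lie mostly between 5% and 46% and are lower towards the right, except a pair in the last stretch, while the triangles of the upper panel lie at 50% or above.

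A pair of adjacent genes in the last stretch went against this order. AT2G07727 and AT2G07728 averaged 38.1% ± 17.7 and 46.3% ± 5.11 CG in 6909 (SD, n = 4), while the genes on either side, AT2G07725 and AT2G07656, averaged 5.28% and 7.34%. AT2G07656 had 5.86%, 7.34%, 7.77% and 8.39% in rounds 1 to 4 of 6909. The promoter windows of AT2G07727 and AT2G07728 were at 87.5% and 81.1% CG in 6909, and had data in 0 and 3 of the other libraries.

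Accession 6966 stood apart from the other 30, and was singled out after its values were seen, so its levels are given as a description without a test. Its 4 library medians over the 43 genes were 0.397% to 0.735% in CG, while all 80 libraries of the other 30 had a median of 0. It had the highest mean of the 31 accessions other than 6909 in 16 of the 43 genes, and the next, 1741, in 4. A level of 5% or more was reached in 41 genes in 6909, 17 in 6966 and at most 5 in any other accession. These values were grouped in place. At least 5 widely covered genes in a row at 1% or more in 6966 occurred as a run of 7 from AT2G07633 to AT2G07643 and a run of 13 from AT2G07652 to AT2G07806.

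In the first run, between bases 3329660 and 3405417, the median CG level of 6966 was 9.73% ± 3.47 (SD, n = 4), and that of 6909 was 16.6% ± 2.99 (SD, n = 4), against 0.104% ± 0.1 in the other 30 (SD over accessions). In the second run, between 3440302 and 3489670, 6966 had 5.43% ± 1.49 and 6909 had 7.47% ± 1.78, against 0.0130% ± 0.0538 in the other 30. CHG in the runs was 3.49% and 2.04% in 6966, against 0.124% and 0.0602% in the other 30. The runs were set by the CG level of 6966 itself, so its higher CG inside them follows from the rule. In the 23 remaining genes the median CG was 0 in all 4 libraries of 6966, 13.4% ± 1.85 in 6909 and 0 in each of the other 30. Single genes outside the runs also had CG methylation in 6966. AT2G07779 averaged 13.3% CG there, with 1 library at 40%. AT2G07621 averaged 6.82% in 6966, but 15.7% in 9057 and 11.5% in 1741. AT2G07626 and AT2G07687 averaged 25% in 6966, which was not particular to it. AT2G07626 averaged 100% in 6184 and 66.7% in 5779, and AT2G07687 averaged 100% in 6911 and 50% in 6189.

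Within the first run lay a pair of genes with data in too few libraries to be tested, in which 6966 was far above 6909. AT2G07667 (bases 3364296 to 3366661) had CG levels of 91.1%, 89.6%, 78.3% and 91.2% in the 4 libraries of 6966, 20.3%, 24.7%, 21.8% and 19.9% in those of 6909 and a median of 0.199% over the other accessions with data. CHG averaged 42.4% in 6966 and 9.80% in 6909, and CHH averaged 9.21% in 6966 and 1.86% in 6909. AT2G07638 (3377163 to 3378213) had 95.0%, 84.0%, 94.1% and 84.8% in 6966 and 10.1%, 8.55%, 14.3% and 9.79% in 6909, with a median of 0.206% over the other accessions. The libraries of 6966 and 6909 did not overlap in either gene. The 1 library of 6024 with data for AT2G07638 was at 100% in CG and 0 in CHG and CHH.

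**Figure D3:**
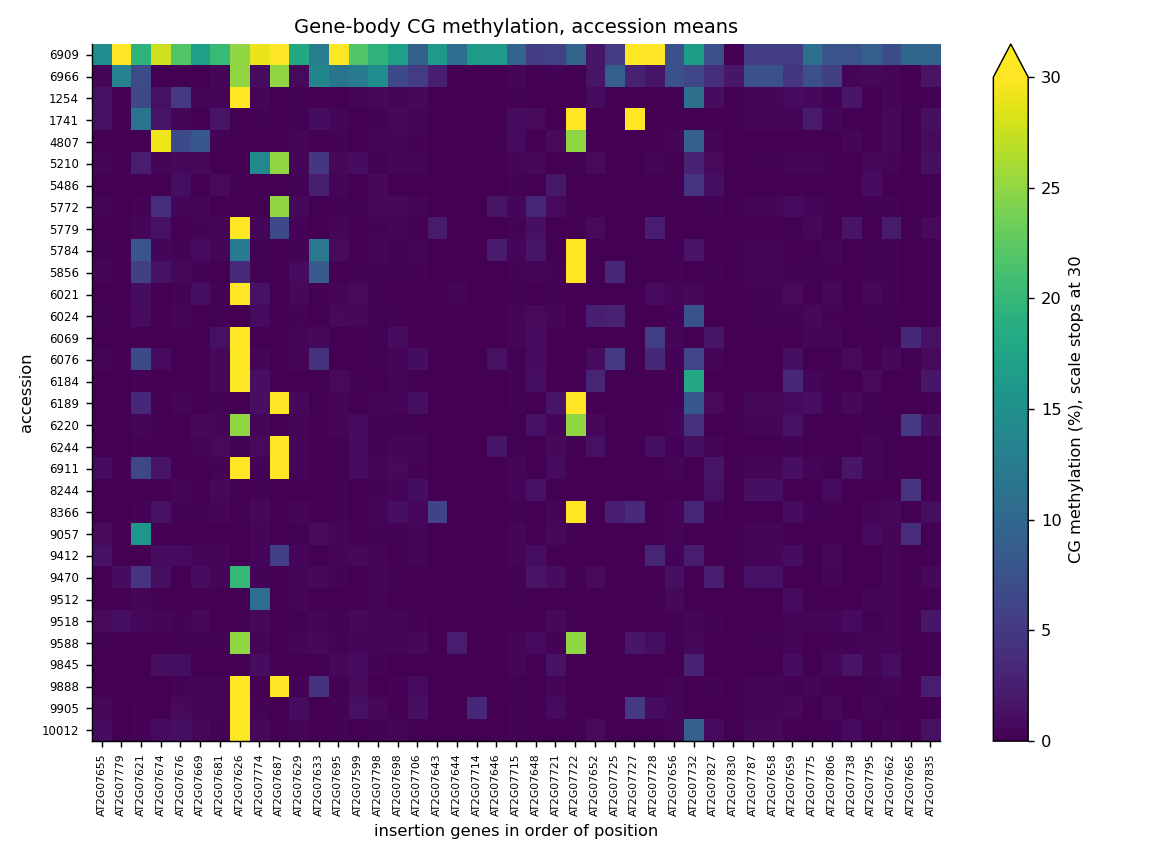
Mean gene-body CG level in percent of each accession (down, 6909 and 6966 on top) in the 43 widely covered genes in order of position (across), with colours that stop at 30%. The row of 6909 is coloured in nearly every gene and that of 6966 mainly in the 2 runs. Columns coloured in many accessions are AT2G07626, AT2G07687 and AT2G07722, whose libraries took values such as 0 and 100%.

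Whether a gene had data also differed between accessions, in some genes in a largely replicated way. AT2G07718, the longest gene body of the set (bases 3424685 to 3430483), had data in all 4 libraries of 6909. Among the other 31 accessions it had data in every library of 15, in some libraries of 3 and in none of 13. Its CG level was 6.48% in 6909 and at most 2.22% in any other library. AT2G07667 had data in every library of 19, some of 5 and none of 7. AT2G07638 had data in every library of 17, some of 9 and none of 5. No depth is given, so a gene without data in an accession may lack the sequence or lack reads, which cannot be told apart.

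Outside 6909 and 6966, raised levels that recurred in every library of an accession were few. Counting gene bodies with at least 2 libraries of an accession, all of them at 5% CG or more, and a mean CHG of 1% or more, there were 11 pairs of a gene and an accession, of which 7 were in 6966. Among the 7, AT2G07787 and AT2G07658 overlap and had the same values, so they are not separate observations. Both also lie in the second run of 6966. The rule was set after the values were seen. AT2G07621 had 15.2%, 11.4% and 8.04% CG in 1741, and 11.3% and 20.1% in 9057, where the median of the accessions was 0.438%. AT2G07669 had 11.8%, 6.54%, 7.37% and 7.34% in 4807, against a median of 0.269% over the accessions. AT2G07732 had 9.09% and 27.1% in 6184, against 0.930%. In 6909 these genes averaged 19.5%, 17.0% and 16.8%.

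Loci of other kinds inside the window also had low CG levels in the accessions other than 6909, while genes beside it had high levels in 6909 and in the others. Of 52 TE rows in the window, 12 had enough CG values, with a median of 22.7% in 6909, 6.77% in 6966 and 0.657% over all 31 accessions other than 6909. Of 52 noncoding loci that the authors annotated in the window, 34 had enough values, with a median of 17.0% in 6909, 3.06% in 6966 and 0.583% over the 31. The 23 neighbouring genes with enough values had a median of 76.5% in 6909 and 70.1% in the others, and 15 of the 23 were higher in 6909. TE genes outside the window had 84.4% in 6909 and 81.8% in the others. These are values side by side, with no test between the sets.

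**Figure D4:**
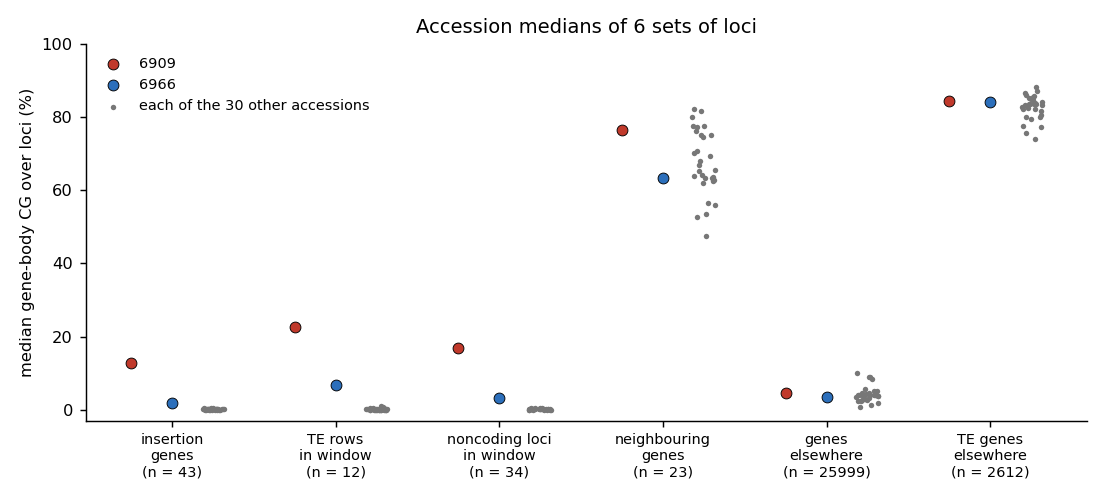
Median gene-body CG level in percent over the loci of 6 sets, with 6909 (red), 6966 (blue) and each of the 30 other accessions (grey) side by side. In the 3 sets inside the window 6909 lies highest, at 12.7%, 22.7% and 17.0%, and the 30 accessions near 0, while in the 3 sets outside it 6909 lies within the range of the others.

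The ratio of CHG to CG in 6909 was near 0.4 at low and at high CG levels in the insertion. Among widely covered genes with at least 5% CG, 41 in all, the CHG level was 0.391 times the CG level at the median, with quartiles of 0.341 and 0.505. The ratio was 0.400 in the 11 genes with data mainly in 6909, 0.295 in 26 neighbours and 0.446 in 3631 TE genes outside the window. CHH was 0.0928 times CG in the widely covered genes, 0.0588 in the 11 genes and 0.0830 in TE genes.

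Nuclear genes whose products work in mitochondria served as a second comparison. Of 26 locus tags listed for subunits of the respiratory chain, cytochrome c, mitochondrial ribosomal proteins and ATP synthase, 16 carried a RefSeq name that says so and 15 of these had a row. Their median gene-body level was 12.1% in 6909 and 9.29% in the others in CG, and 0.282% in 6909 and 0.447% in the others in CHG. None exceeded 2.50% CHG in 6909 or 2.96% in the others.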

How the data were processed

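Leaf DNA was bisulfite-converted and sequenced, and the authors deposited methylation levels per locus and library as fractions from 0 to 1, on the TAIR10 build per the submitters' processing notes. The aligner, the caller, the conversion rate and the handling of reads shared by nucleus and organelle were not given in the sources used here. From the 12 deposited tables, the promoter tables of the authors' own annotation were not used. Samples were grouped by accession from the labels. The genes, lists and tests were chosen with earlier results of these data known.

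Where CHH equalled 1 the region was treated as without data throughout. A CHG fraction equal to 1 was likewise no data for CHG, while a CG locus was left out only if all its libraries with data were at 1. Other CG values at 1 were kept, 159 of 4325 in these genes. Loci with values in at least 80% of libraries were tested with limma 3.58.1 in R 4.3.3: a one-way fit over accessions on the fractions, with an F-test over accessions and a contrast of 6909 with the mean of the others, and Benjamini-Hochberg adjustment over all loci of a table at 0.05. The fit was tested on simulated data. Tables and plots were made with pandas 2.3.3, SciPy 1.17.1, NumPy 2.4.6 and matplotlib 3.10.9 in Python 3.11.15.

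Named genes were the 5 largest and 5 smallest differences in gene-body CG, the highest and lowest levels in 6909, genes with data in fewest and most accessions, and the only gene with a RefSeq symbol. Other genes named were picked after their values were seen. RefSeq names came from assembly TAIR10.1, matched for 91 of 91 genes. Replicate numbers pair libraries because the study's design text ties them to a round of growth. Deviations from accession means correlated at 0.00221 between libraries of the same round and at -0.00075 between rounds, over 29504 loci. Alternatives tried were the missing-value rule, the share of libraries required, an arcsine scale, a replicate block, leaving out each round, accession 6909 or accession 6966, longer loci and the minimum difference. No sequence is printed, since none was used here.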

Additional observations from a re-analysis of the deposited data

Results flagged for a closer look

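In each group of 4 libraries whose values are given above for 6909 or 6966, the gap of the extreme library to its neighbour was set against the range, with Dixon's critical value for 4 values. Of 52 such groups 10 had a library that far apart. The critical value assumes normal values, so it gives no chance rate for fractions held at 0. Groups with a missing value or with all values equal were counted in the 52 but could not be flagged. Where 3 libraries were at 0 and the fourth was above, the flag followed from the rule. In 6909 the library of growth round 3 of AT2G07652 was at 7.14% CG with the other 3 at 0, and the library of round 2 of AT2G07626 was at 100% with the others at 0. In 6966 single libraries stood high in CG at AT2G07728 (6.98%), AT2G07779 (40%), AT2G07727 (11.1%), AT2G07830 (7.41%) and AT2G07626 (100%). At AT2G07652 the library of round 3 of 6966 stood low, at 0. The median of 6966 over the insertion genes stood high in 1 library each in gene-body CHG (0.246%) and promoter CG (1.22%).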

How the results depend on the processing

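Counts of insertion genes higher in 6909 by at least 10 points ranged from 21 to 24 in gene-body CG (main count 22), 11 to 14 in promoter CG (14), 6 to 8 in gene-body CHG (5) and 0 to 4 in promoter CHG (2) when each growth round was left out, and were 0 in CHH. Without a minimum difference they were 38 in gene-body CG, 31 in CHG and 18 in CHH, and 15 of 23 in promoter CHG and 5 of 24 in promoter CHH. Of all promoter windows 1210 of 42402 were higher in CHG and 646 of 47738 in CHH. With no value treated as missing the counts of genes higher by at least 10 points were 2 in gene-body CHG and 8 in promoter CG. Under that setting 4, 13 and 14 of 91 genes were lower by at least 10 points in gene-body CG, CHG and CHH. Of all 62018 loci 3920, 5053 and 6583 were. In promoters 9, 19 and 22 of 91 were lower, and 4191, 7012 and 8400 of all 62018 windows. The main test, which leaves out regions taken to hold no data, had 0 lower in all 6. With a value in every library, the genes higher by at least 10 points were 2 of 31 in gene-body CHG, 7 of 13 in promoter CG and 1 of 12 in promoter CHG. Counts by accession were 24 to 31 in gene-body CG (33), 18 to 23 in CHG (28) and 6 to 9 in CHH (11) without single rounds, and 8 to 11 (15), 3 to 7 (7) and 1 to 3 (2) in promoters. Without 6909 they were 18, 15 and 7 in gene bodies, 6 of 24 in promoter CG and 1 of 23 in promoter CHG. Of all windows 11903 of 46974 passed in CG and 5878 of 41864 in CHG without 6909. With no value treated as missing, counts by accession were 24 in gene-body CHH, 17 in promoter CHG and 15 in promoter CHH, each of 91. Of all 62018 loci or windows, 21403, 22128 and 22995 passed in the same order. An arcsine scale gave 7 in gene-body CHH, values in 50% of libraries gave 4 in promoter CHH, and leaving out 6966, tried after seeing the data, gave 1 in promoter CHH. The causes of these shifts were not tested, beyond the fewer samples or loci that some alternatives hold. Means over genes in place of medians gave 15.8% CG, 6.01% CHG and 1.31% CHH in 6909. A replicate block for growth round gave 22 genes in gene-body CG for the contrast and 32 for the accessions, and moved no count by more than 1.5 times. A CG value of exactly 1 as no data, tried after seeing the data, likewise moved none past that. The depth is unknown, so short regions at 0 or 100% may rest on few reads. The comparison with organelle rows was not run.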
